A study of Mus musculus with 8 samples.

Results

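The genes described here encode the nuclear subunits of respiratory complex II, complex III and ATP synthase, together with cytochrome c, the inhibitor of ATP synthase and 7 assembly factors of these complexes. They were chosen by symbol from a list of 37 genes. All 37 were present among the 17847 genes of the deposited table, and all 37 passed the filter on low values that left 17801 genes for testing. RNA-seq was run on muscle stem cells of C57Bl/6 mice. These cells express Pax7, lie along the fibres of skeletal muscle and repair them. The sort kept CD34+ cells and removed those with CD31, CD45, Sca1 or the dead-cell dye DAPI. The Cox10-/- group (4 libraries) came from adult animals with a floxed Cox10 allele and a Pax7-Cre (ERT2) driver, in which tamoxifen activates Cre in Pax7-expressing cells. The wild-type group (4 libraries) is the control, and the labels do not say whether it carried the floxed allele or the driver. Both groups are labelled as given tamoxifen once, by intraperitoneal injection of 200 mg/kg, and the cells were purified after 2 days. The labels number the libraries of each genotype as replicates 1 to 4 without saying that each came from its own animal, so p-values measure the spread between these samples, which may be technical.

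Complex II, succinate dehydrogenase, passes electrons from succinate to coenzyme Q. Complex III passes them from reduced coenzyme Q to cytochrome c and pumps protons. Cytochrome c, a small soluble haem protein, carries them to complex IV, and ATP synthase lets the protons flow back through a rotating ring of c subunits to drive the synthesis of ATP in its F1 head. Cox10 makes the precursor of haem A, which only complex IV uses, so the genes described here lie before or beside the step that Cox10 serves. Quiescent muscle stem cells hold few mitochondria and gain them when they activate.

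Reads counted in genes numbered 4313903, 4348650, 3112100 and 1693349 in Cox10-/- replicates 1 to 4, against 3550045, 2148893, 4652475 and 4024995 in wild-type replicates 1 to 4. Levels are given as log2 CPM, where CPM scales reads to the library total, and a value of 0 stands for a CPM of 1 or less. By chi-square over reads, the libraries most alike in either genotype were replicates 1 with 2 and 3 with 4 (chi-square per degree of freedom 2.46 to 2.99, against 4.51 to 6.95 for the other pairs of a genotype), and the labels give no reason. By correlation across genes this did not hold for Cox10-/- replicates 3 and 4 (r = 0.9697, against 0.9714 for Cox10-/- replicates 2 and 3). Differences within replicates 1 and 2 and within replicates 3 and 4 are therefore given beside the main results. The 11 markers of muscle stem cells summed to 1853 to 2043 CPM in Cox10-/- libraries, against 2627 to 3331 CPM in wild-type libraries, and 6 of the 11 were lower. The 12 endothelial markers summed to 412 to 483 CPM in Cox10-/- libraries, against 356 to 367 CPM in wild-type libraries, and 4 of the 12 were higher. Markers of fibro-adipogenic cells (2 of 8 higher) summed to 4629 to 9907 CPM in Cox10-/- libraries, against 4563 to 6248 CPM in wild-type libraries. Those of mural cells (1 of 5 higher, 2 lower) summed to 604 to 885 CPM in Cox10-/- libraries, against 450.04 to 630.3 CPM in wild-type libraries. Muscle fibre markers (2 of 9 higher) summed to 133 to 374 CPM in Cox10-/- libraries, against 95.6 to 245 CPM in wild-type libraries. The 4 Schwann cell markers summed to 146 to 355 CPM in Cox10-/- libraries, against 135 to 358 CPM in wild-type libraries. The haematopoietic list had 4 of its 8 genes in the table (Ptprc, Itgam, Cd3e and Tyrobp were not analysed here), which summed to 27.7 to 47.4 CPM in Cox10-/- libraries, against 25.6 to 35.2 CPM in wild-type libraries. The part of these other cells in the results below was not tested. In the marker counts, lower and higher mean an adjusted p under 0.05 in limma, reached by 8.51% and 7.58% of all genes tested. In sorted bulk samples, fewer cells of a type and less RNA per cell cannot be told apart.

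Cox10 itself, the deleted gene, held 3.51, 3.69, 3.49 and 2.05 log2 CPM in Cox10-/- replicates 1 to 4, against 3.98, 3.42, 4.12 and 3.69 log2 CPM in wild-type replicates 1 to 4. The groups overlapped, and only Cox10-/- replicate 4 lay below every wild-type library. The difference was -0.62 ± 0.34 (log2, SE, n = 4 per genotype; limma adjusted p = 0.246), with a 95% interval of -1.36 to 0.13. Values are sums over the gene, and reads from exons outside the deleted stretch would not report the deletion.

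Promoters and coding stretches of some of the genes are shown first, as a description. Promoters of genes of these complexes are known for binding sites of nuclear respiratory factor 1 (NRF1), ETS factors such as GABPA, YY1 and oestrogen-related receptors (ERR). RefSeq promoters on GRCm38.p6, running from 250 bases before to 50 bases after the transcript start, matched 30 of the 37 genes. On either strand, the NRF1 core CGCATGCG stood in 8 of the 30 promoters (26.7%), against 3.93% of the 11467 tested genes with a promoter. The ETS motif CCGGAAG stood in 12 of 30 (40%), against 18.3% of those tested genes. The YY1 motif AAGATGGCG stood in 3 of 30 (10%, against 3.17%), and the ERR motif TNAAGGTCA in 2 of 30 (6.67%, against 0.933%). The ETS and YY1 motifs can overlap by the letters AAG. At least 1 of the 4 motifs stood in 19 of 30 promoters (63.3%), against 24.3% of tested genes. Of the 6 genes with a promoter whose transcript passed the test below, 2 held the NRF1 core (Atp5g2 and Atp5k), 2 the ETS motif (Atp5h and Atp5k), and 3 none of the 4 motifs (Atp5b, Atp5o and Atp5g1). No link between a motif and a difference was tested. A match describes letters in this window and not a bound site. The windows of these 3 genes, and of Uqcr11 and Cycs, which had large differences that did not pass the test, are given 5′ to 3′ on the strand of the gene with the NRF1 and ETS letters in capitals. All 5 genes lie on the minus strand, at chr15:102671035-102671134 (Atp5g2), chr5:108434365-108434464 (Atp5k), chr11:115419905-115420004 (Atp5h), chr10:80406804-80406903 (Uqcr11) and chr6:50566577-50566676 (Cycs).
Atp5g2: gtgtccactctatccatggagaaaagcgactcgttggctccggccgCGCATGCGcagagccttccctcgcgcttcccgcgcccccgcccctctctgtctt
Atp5k: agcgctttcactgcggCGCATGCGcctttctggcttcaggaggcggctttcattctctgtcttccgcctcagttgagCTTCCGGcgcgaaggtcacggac
Atp5h: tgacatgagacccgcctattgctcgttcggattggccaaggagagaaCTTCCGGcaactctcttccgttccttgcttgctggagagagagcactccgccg
Uqcr11: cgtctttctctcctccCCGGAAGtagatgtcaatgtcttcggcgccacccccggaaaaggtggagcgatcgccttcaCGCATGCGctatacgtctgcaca
Cycs: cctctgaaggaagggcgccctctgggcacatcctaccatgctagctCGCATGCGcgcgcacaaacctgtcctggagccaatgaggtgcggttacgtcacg

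Atp5g1, Atp5g2 and Atp5g3 encode precursors of the same mature c subunit, which differ in the import sequence that is removed. Their coding sequences were compared over the last 78 codons, 234 bases, because reads of near-identical copies could be assigned to the wrong gene. Atp5g1 and Atp5g2 shared 198 of the 234 bases (84.6%), Atp5g1 and Atp5g3 184 (78.6%), and Atp5g2 and Atp5g3 181 (77.4%). The longest identical runs were 20, 11 and 8 bases for these 3 pairs. The first 90 bases of this stretch, from GENCODE transcripts on GRCm38, are shown with the positions at which the 3 genes are not all alike in capitals, 26 of the 63 such positions.
Atp5g1: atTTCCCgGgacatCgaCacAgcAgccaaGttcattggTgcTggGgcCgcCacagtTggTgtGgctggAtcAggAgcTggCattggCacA
Atp5g2: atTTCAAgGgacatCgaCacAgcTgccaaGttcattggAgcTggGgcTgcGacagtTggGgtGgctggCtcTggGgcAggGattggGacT
Atp5g3: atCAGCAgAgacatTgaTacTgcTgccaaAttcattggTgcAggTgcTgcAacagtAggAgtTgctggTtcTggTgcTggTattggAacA
The differences are spread over the whole stretch, mostly in the last base of codons.

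Transcripts of 6 ATP synthase subunits and of cytochrome c1 were lower in Cox10-/- cells, and none of the 37 rose. In limma's test over all 17801 genes, 7 of the 37 fell (18.9%), against 8.51% of all genes tested, and 0 rose, against 7.58% of all genes. At an unadjusted p under 0.05, 13 were lower and 0 higher, against 3004 lower and 2506 higher of all 17801 genes. Limma-voom on recovered reads called 6 lower (5 of these 7, and Uqcr11) and 0 higher, against 1523 and 1672 of all genes. The difference lay below 0 in 32 of the 37 (86.5%, against 55.0% of all genes), above 0 in 4 and at 0 in 1 (Uqcrc2). Their median was -0.25 on the log2 scale, against -0.06 for all genes tested. After each library was centred on its median these were -0.17 and 0.03. All 4 Cox10-/- libraries lay below all 4 wild-type libraries in 11 of the 37 (29.7%), against 11.8% of all genes. Summed over the 37 genes, the level was 1288 to 1380 CPM in Cox10-/- libraries, against 1541 to 1665 CPM in wild-type libraries, and the ranges did not overlap. Without wild-type replicate 1 no member passed the test, without Cox10-/- replicate 3 the count was 2, and without Cox10-/- replicate 2 or wild-type replicate 4 it was 3. With the means of replicates 1 and 2 and of replicates 3 and 4 as 2 samples per genotype, no member passed limma's test and 7 were lower at an unadjusted p under 0.05.

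**Figure D1:**
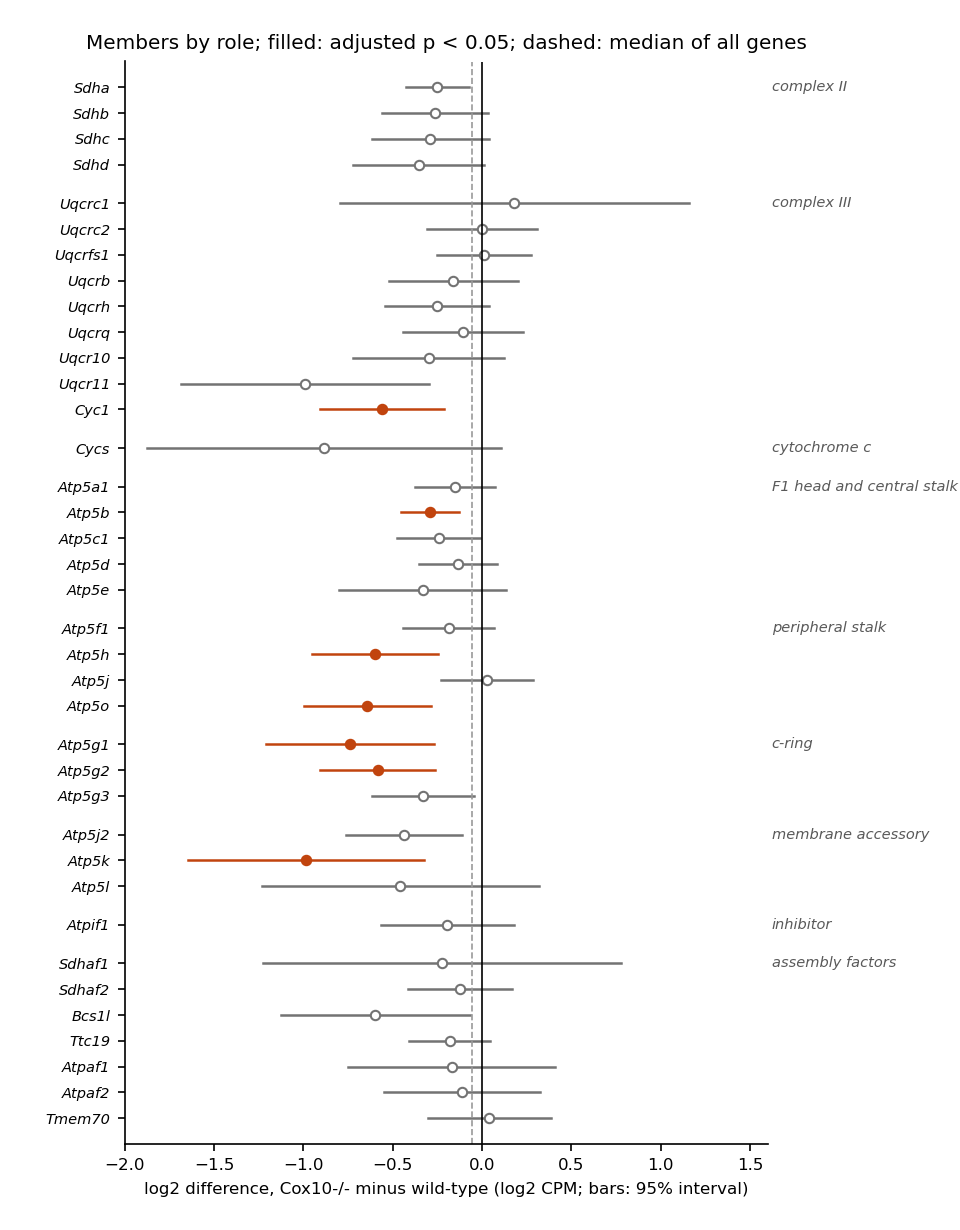
Difference between Cox10-/- and wild-type libraries for each of the 37 genes, grouped by role, on a log2 CPM scale, with 95% intervals from limma; filled points passed an adjusted p of 0.05 and the dashed line is the median of all genes tested, -0.06. The 7 filled points lie between -0.99 and -0.29, and 6 of them are subunits of ATP synthase.

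All 4 complex II differences lay below 0, at -0.25 to -0.36 on the log2 scale, and none passed limma's test (1 at an unadjusted p under 0.05, 0 by limma-voom). Sdha, the flavoprotein that oxidises succinate, stood at 7.03, 7.04, 6.92 and 6.92 log2 CPM in Cox10-/- replicates 1 to 4, against 7.27, 7.15, 7.21 and 7.28 log2 CPM in wild-type replicates 1 to 4. The groups did not overlap. Its difference was -0.25 ± 0.08 (log2, SE, n = 4 per genotype; adjusted p = 0.0578), just outside the threshold. It passed without wild-type replicate 2 (adjusted p = 0.0486) and with a term that separates replicates 1 and 2 from 3 and 4 (0.0358). It did not pass in the other 7 fits that left out 1 library (adjusted p up to 0.153), by limma-voom (0.0794) or after median centring (-0.17, 0.337). Sdhb, the iron-sulfur subunit, differed by -0.26 ± 0.14, and the membrane anchors Sdhc and Sdhd by -0.29 ± 0.15 and -0.36 ± 0.17. The 4 genes together held 198 to 205 CPM in Cox10-/- libraries, against 224 to 254 CPM in wild-type libraries, without overlap. Sdha made up most of these sums (means of 126 and 150 CPM), and the groups overlapped in Sdhb, Sdhc and Sdhd. The median difference of the 4 genes was -0.27 within replicates 1 and 2 and -0.32 within replicates 3 and 4.

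Of 9 complex III subunits, 1 fell (11.1%, near the 8.51% of all genes). Cyc1, cytochrome c1, which hands electrons to cytochrome c, held 4.81, 4.55, 4.93 and 4.37 log2 CPM in Cox10-/- replicates 1 to 4, against 5.17, 5.01, 5.32 and 5.4 log2 CPM in wild-type replicates 1 to 4. Every Cox10-/- library lay below every wild-type library. Its level was 32.2% lower (-0.56 ± 0.16, log2, SE, n = 4 per genotype; adjusted p = 0.032; exact permutation p = 0.0286, the smallest that 70 assignments allow). The call was lost without Cox10-/- replicate 2 or 4 or wild-type replicate 1, 3 or 4, with adjusted p of 0.0649 to 0.0887, and in the fit without a variance trend (0.0558). Uqcr11, a very small subunit, had the largest difference of the complex without passing the test. It held 2.94, 2.74, 1.69 and 3.33 log2 CPM in Cox10-/- replicates 1 to 4 (33, 29, 10 and 17 reads), against 3.70, 3.65, 3.62 and 3.69 log2 CPM in wild-type replicates 1 to 4 (46, 27, 57 and 52 reads). The Cox10-/- libraries were spread widely (SD 0.70) below 4 wild-type libraries that nearly coincided (SD 0.04). The difference was -0.99 ± 0.32 (log2, SE; adjusted p = 0.0536). It passed without Cox10-/- replicate 4 (adjusted p = 0.0227), by limma-voom (0.0164) and with log2(CPM + 1) (0.048). It also passed with a term for the pairs of replicates (0.0436) and without the 2 shallowest libraries (0.0324). It did not pass in the other 7 fits that left out 1 library (adjusted p up to 0.116). Without Cox10-/- replicate 3 the difference was -0.66. Median centring (0.0767), no variance trend (0.0756) and 2 means per genotype (0.141) did not give a call either.

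The other small subunits of complex III differed less. Uqcr10 differed by -0.30 ± 0.19 with no overlap between the groups, the hinge protein Uqcrh by -0.25 ± 0.13, Uqcrb by -0.16 ± 0.17 and Uqcrq by -0.11 ± 0.15. The Rieske iron-sulfur protein Uqcrfs1 and the core protein Uqcrc2 stood near the same level in both groups, with differences of 0.01 ± 0.12 and 0.00 ± 0.14 and 95% intervals of -0.26 to 0.28 and -0.31 to 0.31. Per kilobase of exon, the partner core protein Uqcrc1 held 1.31 CPM in Cox10-/- cells and 1.17 CPM in wild-type cells, against 24.3 and 24.4 CPM for Uqcrc2. With 4 to 14 reads a library, Uqcrc1 had a 95% interval of -0.80 to 1.16, and its sign changed without Cox10-/- replicate 3 or wild-type replicate 1 (-0.10 and -0.03). The 9 subunits summed to 197 to 218 CPM in Cox10-/- libraries, against 223 to 251 CPM in wild-type libraries.

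Cytochrome c, encoded by Cycs, had the widest spread over Cox10-/- libraries of the 37 genes (SD 1.15, against 0.45 over wild-type libraries). It held 5.08, 4.70, 2.89 and 2.94 log2 CPM in Cox10-/- replicates 1 to 4 (146, 113, 23 and 13 reads), against 5.03, 5.27, 4.62 and 4.24 log2 CPM in wild-type replicates 1 to 4. Cox10-/- replicates 1 and 2 lay within the wild-type range, and replicates 3 and 4 lay below it. The difference was -0.89 ± 0.46 over all libraries (log2, SE; adjusted p = 0.208), -0.26 within replicates 1 and 2 and -1.51 within replicates 3 and 4. When the fit held a term that separates replicates 1 and 2 from 3 and 4, its adjusted p was 0.0214. That term assumes that these pairs match across genotypes, which the labels do not say. Cycs passed in none of the 8 fits that left out 1 library (adjusted p 0.0607 to 0.463), nor by limma-voom (0.401).

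**Figure D2:**
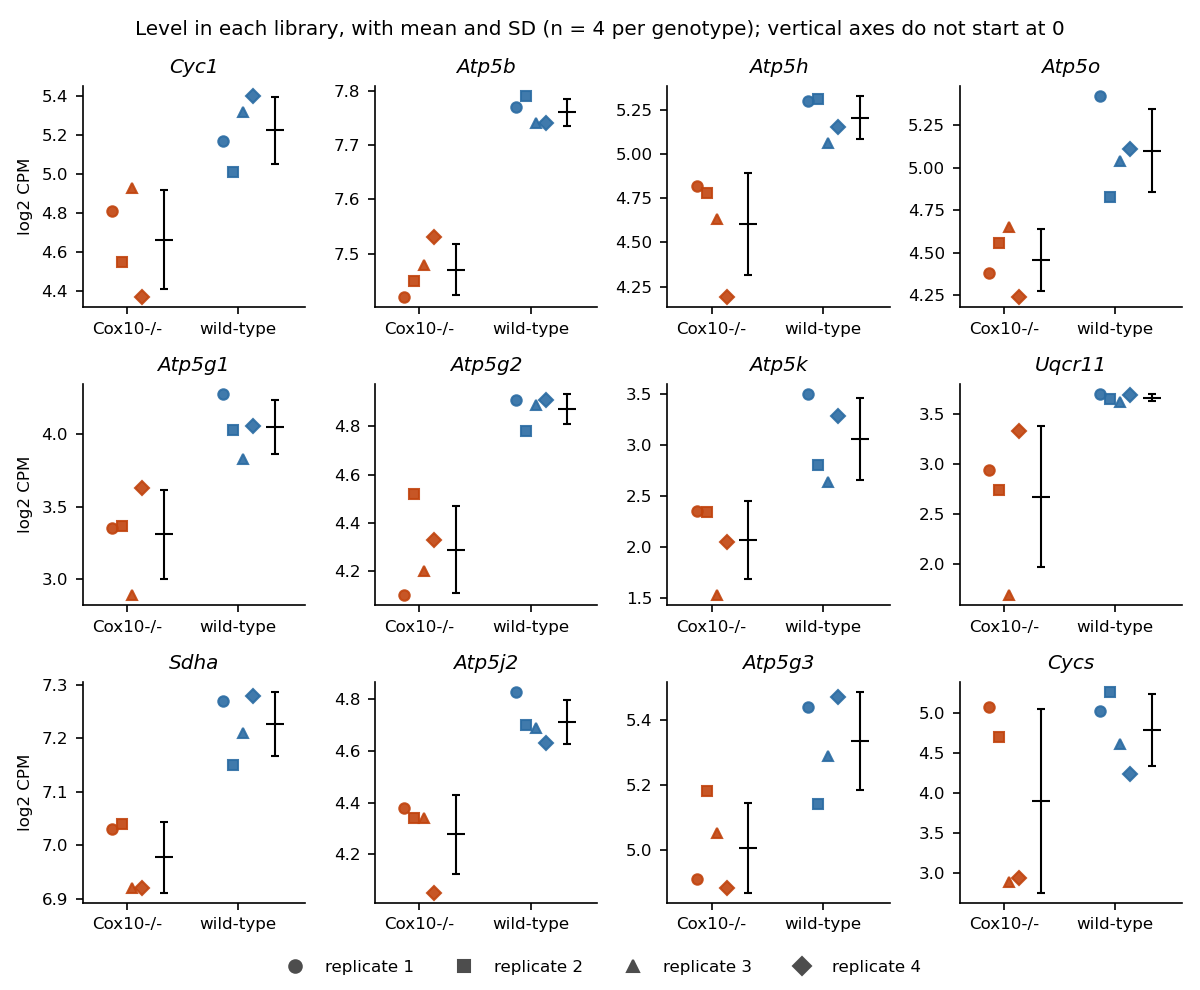
Level of 12 genes in every library (log2 CPM; Cox10-/- left, wild-type right; markers give the replicate number, bars the mean and SD of 4 libraries). The groups do not overlap in any panel except Atp5g3 and Cycs, and in Cycs the Cox10-/- replicates 3 and 4 lie at 2.89 and 2.94, below all other libraries.

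ATP synthase held most of the falls, 6 of its 15 subunits (40%, against 8.51% of all genes). Of its 15 differences, 14 lay below 0 (93.3%, against 55.0% of all genes), with a median of -0.33. Limma-voom called 4 of the 15 lower, against 1523 of all 17801 genes. In 7 of the 15 (46.7%) every Cox10-/- library lay below every wild-type library, against 11.8% of all genes and 44.4% of complex I subunits. In the F1 head and central stalk, 1 of 5 fell (20%, against 8.51% of all genes). Atp5b, the catalytic beta subunit, had 92.6 CPM per kilobase of exon in Cox10-/- cells and 113 CPM in wild-type cells, the highest level per length of the 37 genes. It held 7.42, 7.45, 7.48 and 7.53 log2 CPM in Cox10-/- replicates 1 to 4, against 7.77, 7.79, 7.74 and 7.74 log2 CPM in wild-type replicates 1 to 4. Libraries of a genotype differed by at most 0.11. The difference of -0.29 ± 0.08 (log2, SE, n = 4 per genotype), 18.2% lower, passed the test (adjusted p = 0.0209). The call was lost without Cox10-/- replicate 2 or 3 or wild-type replicate 1 (adjusted p 0.0536 to 0.0612), by limma-voom (0.0738), without a variance trend (0.0837) and after median centring (-0.21 ± 0.13, 0.327). Its partner in the head, the alpha subunit Atp5a1, differed by -0.15 ± 0.10, and in Cox10-/- replicate 4 it stood at 7.72 log2 CPM, above every wild-type library. The central stalk subunits gamma (Atp5c1), delta (Atp5d) and epsilon (Atp5e) differed by -0.24 ± 0.11, -0.14 ± 0.10 and -0.33 ± 0.21 and did not pass.

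In the peripheral stalk, which holds the head still while the ring turns, 2 of 4 subunits fell (50%, against 8.51% of all genes). Atp5o, the subunit that joins the stalk to the head, held 4.38, 4.56, 4.65 and 4.24 log2 CPM in Cox10-/- replicates 1 to 4, against 5.42, 4.83, 5.04 and 5.11 log2 CPM in wild-type replicates 1 to 4, 35.9% lower (-0.64 ± 0.16, log2, SE; adjusted p = 0.0197). Its call held in 7 of the 8 fits that left out 1 library and was lost without wild-type replicate 1, the highest one (adjusted p = 0.0717). Atp5h, subunit d, whose promoter with its ETS motif is printed above, held 4.82, 4.78, 4.63 and 4.19 log2 CPM in Cox10-/- replicates 1 to 4, against 5.30, 5.31, 5.06 and 5.15 log2 CPM in wild-type replicates 1 to 4. The groups did not overlap for either gene. Atp5h was 34.0% lower (-0.60 ± 0.16, log2, SE; adjusted p = 0.0256), and lost its call without Cox10-/- replicate 3 or wild-type replicate 1 or 2 (0.0511 to 0.077), as well as without the 2 shallowest libraries (0.0574). Subunit b (Atp5f1) differed by -0.19 ± 0.12. Coupling factor 6 (Atp5j) was the 1 subunit of ATP synthase above 0, at 0.03 ± 0.12 with a 95% interval of -0.23 to 0.28, and it lay below 0 without Cox10-/- replicate 3 or wild-type replicate 2.

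The c-ring had 2 of its 3 genes among the falls (66.7%, against 8.51% of all genes). Atp5g1 held 3.35, 3.37, 2.89 and 3.63 log2 CPM in Cox10-/- replicates 1 to 4, against 4.28, 4.03, 3.83 and 4.06 log2 CPM in wild-type replicates 1 to 4. Atp5g2 held 4.10, 4.52, 4.20 and 4.33 log2 CPM in Cox10-/- replicates 1 to 4, against 4.91, 4.78, 4.89 and 4.91 log2 CPM in wild-type replicates 1 to 4. In both genes the groups lay apart, while in Atp5g3 Cox10-/- replicate 2 reached into the wild-type range. Atp5g3 held 4.91, 5.18, 5.05 and 4.88 log2 CPM in Cox10-/- replicates 1 to 4, against 5.44, 5.14, 5.29 and 5.47 log2 CPM in wild-type replicates 1 to 4. Atp5g1 was 40.1% lower (-0.74 ± 0.22, log2, SE; adjusted p = 0.0358) and Atp5g2 33.3% lower (-0.58 ± 0.15; adjusted p = 0.0193), and Atp5g3 differed by -0.33 ± 0.13 (adjusted p = 0.109). Leaving out Cox10-/- replicate 1, 2 or 3 or wild-type replicate 1, 2 or 4 ended the call of Atp5g1 (0.0526 to 0.112), as did median centring (0.0693). Leaving out Cox10-/- replicate 3 or wild-type replicate 1 or 4 ended that of Atp5g2 (0.0516 to 0.0604).

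The 3 c-ring genes together held 57.4 to 69.5 CPM in Cox10-/- libraries, against 79.1 to 92.9 CPM in wild-type libraries. Atp5g3 made up 47.5% to 56.2% of this sum in Cox10-/- libraries, against 44.6% to 48.7% in wild-type libraries, and these ranges overlapped. Sums and shares are of reads and were not scaled to transcript length. Reads that fell wholly in the runs the coding sequences share, at most 20 bases in the compared stretch, could be counted for either gene. The assignment of reads to the 3 genes was not tested.

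Of the membrane accessory subunits, which bind ATP synthases into rows along the cristae, 1 of 3 fell (33.3%, against 8.51% of all genes). Atp5k, subunit e, held 2.35, 2.34, 1.53 and 2.05 log2 CPM in Cox10-/- replicates 1 to 4 (22, 22, 9 and 7 reads), against 3.5, 2.80, 2.64 and 3.28 log2 CPM in wild-type replicates 1 to 4 (40, 15, 29 and 39 reads). The groups did not overlap, and the level was 49.6% lower (-0.99 ± 0.30, log2, SE; adjusted p = 0.0445). The call was lost without any 1 of the Cox10-/- libraries or without wild-type replicate 1 or 4 (0.054 to 0.135), by limma-voom (0.0595), after median centring (0.0504) and without the 2 shallowest libraries (0.0571). A pseudogene copy, Atp5k-ps2, is listed separately at 0.00 to 0.82 log2 CPM in Cox10-/- libraries and 0.78 to 1.5 log2 CPM in wild-type libraries, so reads of Atp5k could have been split between them.

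Atp5j2, subunit f, held 4.38, 4.34, 4.34 and 4.05 log2 CPM in Cox10-/- replicates 1 to 4, against 4.83, 4.70, 4.69 and 4.63 log2 CPM in wild-type replicates 1 to 4. The groups lay apart, and the difference of -0.43 ± 0.15 (log2, SE) did not pass (adjusted p = 0.0669). It did without a variance trend (0.0484) and with a term for the pairs of replicates (0.0495). It passed in none of the 8 fits that left out 1 library (adjusted p up to 0.17), nor by limma-voom (0.0519) or with 2 means per genotype (0.372). Atp5l, subunit g, differed by -0.46 ± 0.36 on 5 to 24 reads a library, with -1.0 within replicates 1 and 2 and 0.09 within replicates 3 and 4. The inhibitor Atpif1, which blocks ATP synthase from running backwards, held 4.35, 4.30, 4.47 and 4.85 log2 CPM in Cox10-/- replicates 1 to 4, against 4.58, 4.96, 4.56 and 4.65 log2 CPM in wild-type replicates 1 to 4. The groups overlapped (-0.19 ± 0.17, log2, SE; adjusted p = 0.476).

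**Figure D3:**
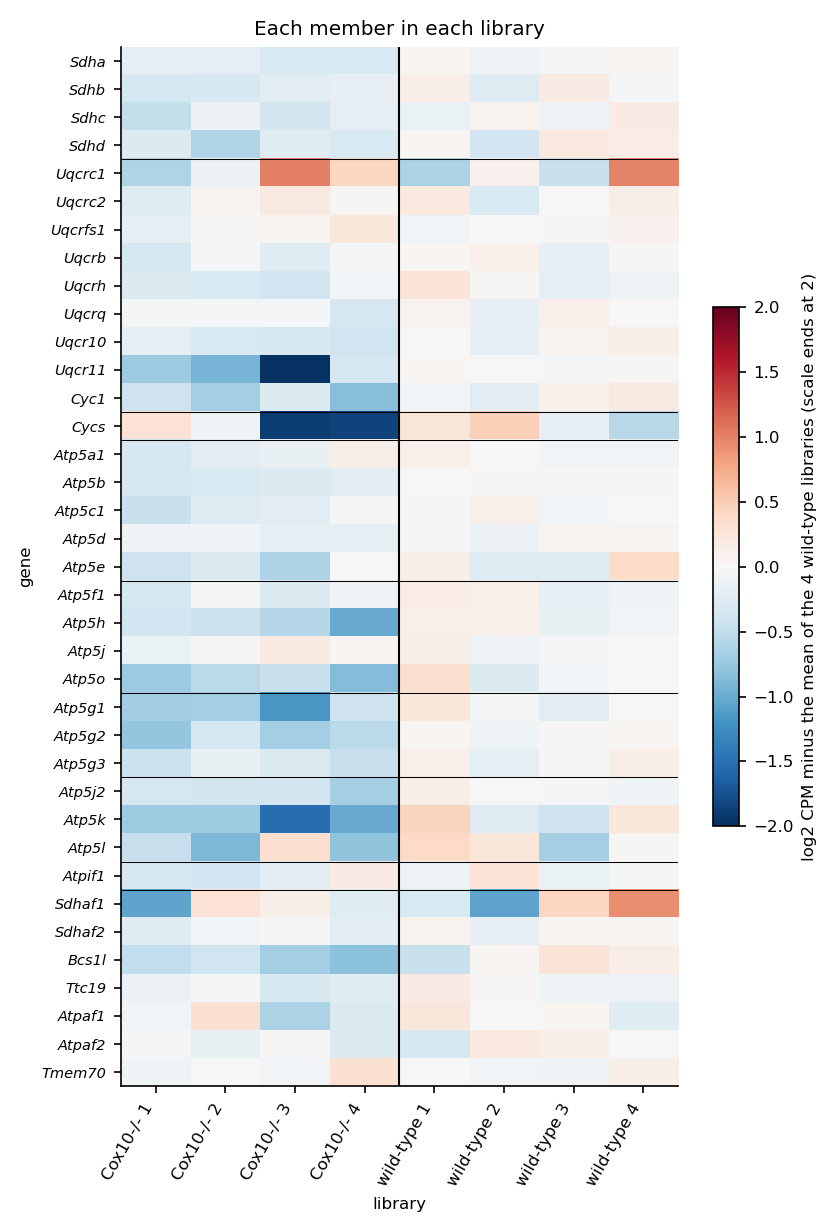
Each of the 37 genes in each library as log2 CPM minus the mean of the 4 wild-type libraries (blue below, red above; scale ends at 2; horizontal lines separate roles). The ATP synthase rows are blue in most Cox10-/- columns, Cycs is dark only in Cox10-/- replicates 3 and 4, and Uqcr11 is darkest in Cox10-/- replicate 3.

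None of the 7 assembly factors passed limma's test (1 lower at an unadjusted p under 0.05, 0 by limma-voom), and their median was -0.17. Bcs1l, the chaperone that places the Rieske protein into complex III, came nearest. It held 2.89, 2.97, 2.69 and 2.56 log2 CPM in Cox10-/- replicates 1 to 4, against 2.93, 3.42, 3.64 and 3.51 log2 CPM in wild-type replicates 1 to 4. The groups overlapped through wild-type replicate 1, and the difference was -0.60 ± 0.24 (log2, SE; adjusted p = 0.117). Ttc19, which acts on complex III after its assembly, differed by -0.18 ± 0.10. Sdhaf2, which helps attach the flavin to Sdha, differed by -0.12 ± 0.13, and Sdhaf1, a factor for the iron-sulfur subunit Sdhb, by -0.23 ± 0.46 with 1 library of each genotype at 0. The F1 factors Atpaf1 and Atpaf2 differed by -0.17 ± 0.27 and -0.11 ± 0.20. Tmem70, which serves the c-ring, stood at 0.04 ± 0.16.

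The median over the 37 genes was -0.27 within replicates 1 and 2, with 34 genes below 0, and -0.26 within replicates 3 and 4, with 29 below 0. The medians of all genes tested were 0.05 and -0.15 within the same replicates, with 8050 and 10897 of the 17801 genes below 0. The 7 genes that fell were below 0 in both pairs of replicates. This was fixed in advance, because in each of them every Cox10-/- library lay below every wild-type library. The 11 members under 1000 bases of exon all lay below 0, with a median of -0.33, against -0.21 for the 26 longer ones, and the ranges of the 2 sets overlapped. Spearman's rho between exon length and difference, a description across genes, was 0.28 over the 37 and 0.05 over all genes with a length. Among all genes tested, 1315 of 2164 short genes lay below 0. The median of all 2164 was -0.13, against -0.04 for 15399 longer genes. The 37 genes lie on 15 chromosomes.

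**Figure D4:**
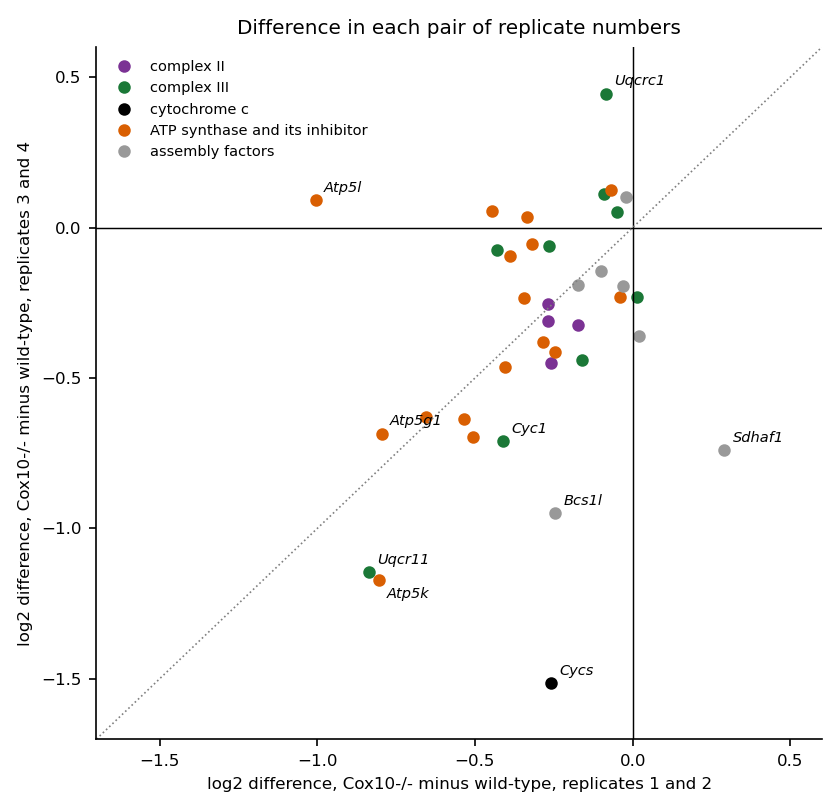
Difference between Cox10-/- and wild-type (log2 CPM) within replicates 1 and 2 (horizontal) and within replicates 3 and 4 (vertical) for the 37 genes, with colours for roles and a dotted line of equality. Most points lie below 0 on both axes, Cycs sits at -0.26 and -1.51, and Atp5l at -1.0 and 0.09.

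Other genes listed with these complexes, not among the 37, were in the table for 12 of 16 symbols, and 1 of them fell (8.33%, near the 8.51% of all genes). At an unadjusted p under 0.05, 8 of the 12 were lower, against 3004 of all 17801 genes. In 6 (50%) every Cox10-/- library lay below every wild-type library, against 11.8% of all genes. Limma-voom called 2 lower, against 1523 of all genes. These were Uqcc2 (adjusted p = 0.0463) and Oma1 (adjusted p = 0.0342), a protease that is neither a subunit nor an assembly factor of these complexes. Lyrm7, a factor that holds the Rieske protein before its insertion, was at 0.00, 0.20, 0.69 and 0.00 log2 CPM in Cox10-/- replicates 1 to 4, against 1.76, 0.90, 1.69 and 2.24 log2 CPM in wild-type replicates 1 to 4. Its difference of -1.43 ± 0.36 (log2, SE; adjusted p = 0.0186) is a difference from the floor of the table, since 2 Cox10-/- libraries stand at 0. The call was lost without wild-type replicate 1 or 4 (adjusted p = 0.0512 and 0.059), by limma-voom (0.0524) and with 2 means per genotype (0.0859). The median of the 12 was -0.61. The ADP/ATP and phosphate carriers Slc25a4, Slc25a5 and Slc25a3 did not pass (differences of -0.10 to -0.20; 0 of 3 at an unadjusted p under 0.05 and 0 by limma-voom).

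The mitochondrially encoded partners were not separated by genotype (0 of 3 passed limma's test, 0 at an unadjusted p under 0.05 and 0 by limma-voom). Cytochrome b of complex III, mt-Cytb, held 7.95, 8.0, 8.29 and 8.91 log2 CPM in Cox10-/- replicates 1 to 4, against 8.12, 8.50, 7.97 and 8.07 log2 CPM in wild-type replicates 1 to 4. For subunit a of ATP synthase, mt-Atp6, the values were 3.54, 2.69, 7.05 and 6.36 log2 CPM in Cox10-/- replicates 1 to 4, against 7.44, 7.46, 2.69 and 7.07 log2 CPM in wild-type replicates 1 to 4. Cox10-/- replicates 1 and 2 and wild-type replicate 3 were thus low and the other 5 libraries high, and mt-Atp8, whose coding sequence overlaps that of mt-Atp6, was low in the same 3 libraries with 1.59, 0.00 and 0.00 log2 CPM. The difference in mt-Atp6 was -4.33 within replicates 1 and 2 and 1.82 within replicates 3 and 4.

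Among genes that make coenzyme Q, the substrate shared by complexes II and III, 1 of 13 rose, a share near the 7.58% of all genes, and 0 fell (2 lower at an unadjusted p under 0.05 and 1 by limma-voom). Adck3, a kinase-like protein that supports coenzyme Q synthesis, held 6.97, 7.21, 7.35 and 7.23 log2 CPM in Cox10-/- replicates 1 to 4, against 6.62, 6.49, 6.57 and 6.69 log2 CPM in wild-type replicates 1 to 4. It was 1.51-fold higher (0.60 ± 0.10, log2, SE; adjusted p = 0.00188) in a list whose median was -0.29. Of 8 other dehydrogenases that reduce coenzyme Q or feed one that does, 1 rose, against 7.58% of all genes. Prodh, the first enzyme of proline breakdown, held 7.10, 7.04, 6.91 and 6.77 log2 CPM in Cox10-/- replicates 1 to 4, against 5.77, 6.19, 5.81 and 5.88 log2 CPM in wild-type replicates 1 to 4. It was 2.06-fold higher (1.04 ± 0.12, log2, SE; adjusted p = 0.000129). Both calls held in all 8 fits that left out 1 library, with adjusted p up to 0.0103 for Adck3 and 0.000854 for Prodh. Prodh passed with 2 means per genotype (0.00474) and Adck3 did not (0.0541).

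Complexes I and IV, the other proton pumps of the chain, were measured alongside. Of 36 complex I subunits, 5 fell (13.9%, against 8.51% of all genes) and 0 rose. The difference lay below 0 in 35 of them (97.2%, against 55.0% of all genes), and the median was -0.36. In 16 of the 36 (44.4%) every Cox10-/- library lay below every wild-type library, against 11.8% of all genes. At an unadjusted p under 0.05, 16 were lower and 0 higher, against 3004 and 2506 of all 17801 genes. Limma-voom called 11 lower and 0 higher, against 1523 and 1672 of all genes. Ndufs8, an iron-sulfur subunit, differed by -0.72 ± 0.16 (log2, SE; adjusted p = 0.0116) and held in all 8 fits that left out 1 library (up to 0.0393), but not with 2 means per genotype (0.154). Ndufs6, Ndufc1, Ndufa12 and Ndufa9 differed by -0.98, -0.73, -0.78 and -0.58, and each lost its call in 5 to 7 of those 8 fits, among them the ones without Cox10-/- replicate 3 and without wild-type replicate 1, 3 or 4 (adjusted p up to 0.132). Each of the other 4 libraries, left out, ended the call of at least 1 of them. Of 11 complex IV subunits, 0 passed limma's test (3 lower at an unadjusted p under 0.05, 1 by limma-voom). In 4 of the 11 (36.4%) every Cox10-/- library lay below every wild-type library. All 11 lay below 0, against 55.0% of all genes, and the median was -0.34. The medians of complexes II, III and ATP synthase, -0.28, -0.16 and -0.33, lay beside these values, and no difference between complexes was tested.

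**Figure D5:**
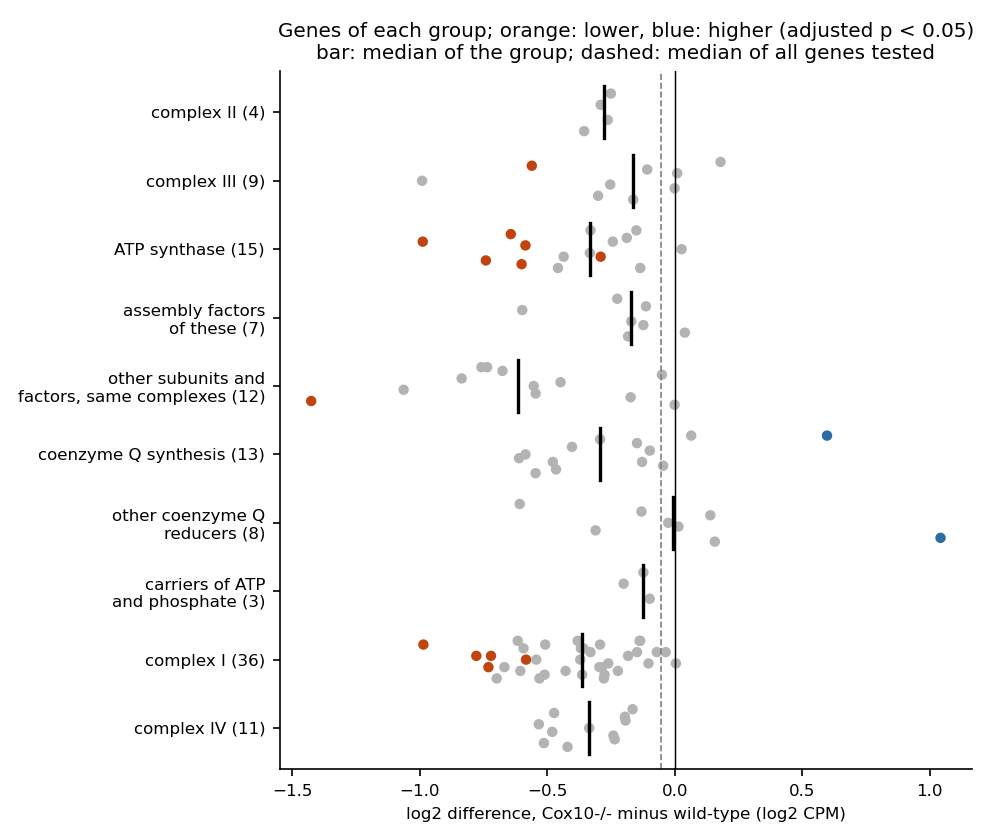
Difference between Cox10-/- and wild-type (log2 CPM) for every gene of each group, with the number of genes in brackets, the group's median as a bar and the median of all genes tested as a dashed line; orange genes fell, blue genes rose. The orange points lie in complex III, ATP synthase, the other genes listed with these complexes and complex I, and the 2 blue points are Adck3 and Prodh.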

How the data were processed

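RNA-seq of 4 Cox10-/- and 4 wild-type libraries was used, all from sorted mouse muscle stem cells. The authors deposited 1 table of log2 CPM values with 17847 genes, and 1054 further rows without a gene symbol were left out. Trim Galore, HISAT2, featureCounts, DESeq2 and the build mm9 are named without versions in the submitters' processing notes. How strand and multi-mapped reads were handled is not given in the sources used here. Per the labels' protocols, the kit took low inputs of total RNA and was stranded. Low values were whole multiples of 1 read (100% within 0.1 of a whole number, up to 20 reads), which gave the read totals. Depth was 1693349 to 4652475 reads, and members with few reads carry more counting error.

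Genes above 0 in at least 4 of 8 libraries were kept (46 removed). Cox10-/- minus wild-type was fitted on the deposited values with limma 3.58.1 under R 4.3.3, with genotype alone, a trended variance prior, no pseudocount, and Benjamini-Hochberg adjustment over all 17801 genes at a threshold of 0.05. Because of the floor, differences of genes with libraries at 0 can be understated or overstated. Single members also had an exact two-sided permutation test over 70 assignments, with 0.0286 the smallest possible p. The functions were checked on simulated data. The alternatives were no filter, log2(CPM + 1), median centring, limma-voom with TMM scaling on recovered reads, no variance trend, each library left out, a replicate block, a term for, or means of, replicates 1 and 2 against 3 and 4, and leaving out the 2 shallowest libraries. Replicate numbers were not shown to pair libraries. Members were named in full where they passed the test, came nearest to it, had the smallest p of their role or belong to the c-ring, and Cycs was added. Other genes come only from the lists. Members and lists were chosen with earlier results of these data known. A planned comparison of the c-subunit proteins was made on coding sequences. Transcript lengths are unions of exons of GENCODE M21 basic on GRCm38, and promoters are RefSeq's. Python 3.11.15, pandas 2.3.3 and matplotlib 3.10.9 were used.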

Additional observations from a re-analysis of the deposited data

Results flagged for a closer look

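Among 88 groups of 4 libraries examined for a single library far from the other 3 (74 of them from the 37 genes), 8 were picked out, 5 of them among the 37 genes, where chance picks out about 5% of groups. In each, the gap between the outermost library and its nearest neighbour, as a share of the whole range, exceeded Dixon's 95% critical value. Sdhd stood low in Cox10-/- replicate 2 (4.29 log2 CPM, next 4.60; gap 0.861 of the range). Uqcrq stood low in Cox10-/- replicate 4 (4.15, next 4.45; gap 1.0, because the other 3 Cox10-/- libraries gave the same value). Atp5j2 stood low in Cox10-/- replicate 4 (4.05, next 4.34; gap 0.879). Atp5g2 stood low in wild-type replicate 2 (4.78, next 4.89; gap 0.846), a library that lies nearest to the Cox10-/- ones for this gene. Sdhaf2 stood low in wild-type replicate 2 (4.78, next 4.99; gap 0.875). Cox10 stood low in Cox10-/- replicate 4 (2.05, next 3.49; gap 0.878). The mitochondrially encoded mt-Atp6 stood low in wild-type replicate 3 (2.69, next 7.07; gap 0.918), and so did mt-Atp8 (0.00, next 4.37; gap 0.886).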

How the results depend on the processing

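The 7 falls did not depend on the filter on low values (7), and the count was 8 with log2(CPM + 1), which added Uqcr11. By limma-voom it was 6, with Atp5b and Atp5k lost and Uqcr11 gained. Without the variance trend it was 6, with Cyc1 and Atp5b lost and Atp5j2 gained. Without the 2 shallowest libraries it was 7, with Atp5h and Atp5k lost and Sdhd and Uqcr11 gained. Each of these last settings thus kept 5 of the 7. The count was 4 after median centring (Cyc1, Atp5h, Atp5o and Atp5g2) and 11 when a term separated replicates 1 and 2 from 3 and 4. It was 0 with 2 means per genotype, and 0 to 6 when each library was left out. No member rose in any setting. The count of all genes changed, 2863 (1514 lower), was 3838 (2028 lower) with the term for replicates 1 and 2 against 3 and 4. It was 858 with 2 means per genotype and 1810 to 2883 when each library was left out. Rises were 47.1% of the 2863 changes, and 58.4% of the changes after median centring. With a replicate block 9 members and 3201 genes passed. Deviations of same-numbered libraries correlated at 0.0453 to 0.137, so the numbers were not taken as pairs. Members near 0 changed sign. Without the 2 shallowest libraries Uqcrfs1 was -0.0567, Atp5j -0.01, Tmem70 -0.07 and Atpaf2 0.0133. When each library was left out, Uqcrc1 ranged from -0.0967 to 0.51, Uqcrfs1 from -0.0617 to 0.075, Atp5j from -0.0233 to 0.08, Tmem70 from -0.05 to 0.08 and Sdhaf1 from -0.5775 to 0.0858. The cause of these changes was not tested. Uqcrc1, Sdhaf1, Atp5l and Atp5k rest on few reads, which limits what their values can show.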
